A study of Mus musculus with 32 samples.

Results

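Striatal transcripts of 8 R6/2 mice given HSP990 were compared with those of 7 wild-type mice given vehicle. These 15 arrays were all those whose titles name the 2 groups, out of 32 in the series, and 18193 genes were measured on each. The comparison asks whether a drug that induces chaperones brought any transcript altered in R6/2 back to the level of the untreated wild type, or moved it further away. The other 17 arrays, 7 from R6/2 mice given vehicle and 10 from wild-type mice given HSP990, served to place each difference.

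All mice were males of 12 weeks on a CBA X C57Bl/6 background. R6/2 mice carry, beside their own huntingtin genes, a transgene with the promoter and first exon of human HTT and an expanded CAG repeat, a fragment model of Huntington disease. Treated mice received 12 mg/kg HSP990, an HSP90 inhibitor taken up by mouth, and were examined 4 h later. Both vehicle groups received the same suspension medium by gavage, so the groups compared here differed in genotype and in drug at once. The labels give no animal identifiers, so p-values measure the spread between arrays.

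HSP90 is an abundant cytosolic chaperone that holds many kinases and receptors in an active shape, and it also restrains a heat shock factor. When HSP90 is inhibited, the factor binds heat shock elements, which are repeated GAA or TTC units, and chaperone genes such as those of the HSP70 and HSP40 families are transcribed. In the striatum of Huntington disease models, transcripts of the spiny projection neurons, among them those of dopamine receptors, neuropeptides and ion channel subunits, are the classic group that falls.

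Because some chaperone promoters carry a heat shock element, 4 chosen from those with a match are shown first, from the RefSeq table for build GRCm38.p6. Each runs 5′ to 3′ from 150 bases before the annotated start to 30 bases after it. Capitals mark matches to the element as defined here. Chordc1 (CHORD domain protein, a partner of HSP90) lies at chr9:18292117-18292296 on the plus strand. Hspe1 (the mitochondrial co-chaperonin) lies at chr1:55087998-55088177 on the plus strand, and its element also falls in the window of the divergent gene Hspd1. In both, the capitals are the element of 3 units. Hspb1 (a small heat shock protein) lies at chr5:135887769-135887948 on the plus strand, and Hspa1b (an inducible HSP70) at chr17:34959209-34959388 on the minus strand. In these the capitals are elements of 2 units.
Chordc1: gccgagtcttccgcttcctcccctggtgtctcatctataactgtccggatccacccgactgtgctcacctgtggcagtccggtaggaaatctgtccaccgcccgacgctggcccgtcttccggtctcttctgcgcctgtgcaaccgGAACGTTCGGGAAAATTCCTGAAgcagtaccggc
Hspe1: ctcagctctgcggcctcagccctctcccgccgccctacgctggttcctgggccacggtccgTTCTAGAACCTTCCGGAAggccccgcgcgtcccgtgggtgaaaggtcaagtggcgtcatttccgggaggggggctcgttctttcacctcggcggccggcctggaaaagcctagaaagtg
Hspb1: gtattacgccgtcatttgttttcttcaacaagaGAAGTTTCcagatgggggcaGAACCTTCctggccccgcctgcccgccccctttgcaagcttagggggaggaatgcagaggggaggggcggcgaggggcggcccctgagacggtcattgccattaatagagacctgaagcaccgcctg
Hspa1b: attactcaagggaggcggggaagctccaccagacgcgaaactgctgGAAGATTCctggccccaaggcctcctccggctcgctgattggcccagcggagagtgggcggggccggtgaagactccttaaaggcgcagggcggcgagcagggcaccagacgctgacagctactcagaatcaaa

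The longer element was searched as TTCNNGAANNTTC or its reverse complement GAANNTTCNNGAA in windows of 300 bases, from 250 before to 50 after each start. It was present for 0.609% of the array's genes that had a promoter in the table (88 of 14452). Among genes that were higher in treated R6/2 than in untreated wild type and raised by HSP990 within R6/2, it was present for 2.71% (7 of 258). Outside the chaperone list the share of such genes was 1.24% (3 of 241), and within the chaperone list 5 of 23 genes had it. It was found for 1 of 64 disease-altered genes that moved toward wild type, Slc35c1 (a GDP-fucose transporter), and for none of 94 genes that were lower and lowered by the drug. The shorter element, GAANNTTC or TTCNNGAA, is contained in the longer one and was found for 15% of array genes (2171 of 14452). It was found for 60.9% of the chaperone list (14 of 23) and for 15.6% of the genes that moved toward wild type (10 of 64). Among disease-altered genes raised further from wild type, which include chaperones, it was found for 27.9% (19 of 68). The longer element was found for 4.41% of those (3 of 68). Outside the chaperone list, 19.1% of genes higher in treated R6/2 and raised by HSP990 had the shorter element (46 of 241). A match is a description of these letters and does not show that a factor binds there.

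The deposited values are log2 intensities, from 2.15 to 14.7 with a median of 5.76 over all probe sets, and array medians lay within 5.73 to 5.78. Defining transcripts of spiny neurons were high, as striatum should show: Drd1 (the D1 dopamine receptor) was 11.4 to 12.0 and Penk (proenkephalin) 13.1 to 13.6 in untreated wild type. Mouse Htt was not called between treated R6/2 and untreated wild type (log2 difference 0.19 ± 0.14 SE, adjusted p = 0.34), but was with its probe sets averaged (0.18, adjusted p = 0.022). Its probe set does not check the genotype, since the transgene is human.

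Several arrays stood apart. Transcripts of liver were high in some of them: Alb (albumin) exceeded 10 in 4 of 8 treated R6/2 arrays (replicates 1, 3, 6 and 8), 3 of 7 R6/2 vehicle arrays (replicates 2, 3 and 6), 1 of 10 wild-type HSP990 arrays and none of the wild-type vehicle arrays. The mean of 15 liver transcripts ranged from 4.69 to 9.52 in treated R6/2 and from 4.33 to 6.04 in untreated wild type. The 3′ minus 5′ difference of the Gapdh control probe sets, a sign of RNA degradation, was 5.01 in treated R6/2 replicate 5 and 2.23 in wild-type vehicle replicate 5, against 0.090 to 1.53 elsewhere. R6/2 vehicle replicate 7 was nearer to wild type than the others of its group for Ryr1, Phex, Ddit4l, Abi3bp and Sfmbt2, and its Hspa1b value was 9.52 against 6.94 to 7.44 in the others. Choroid plexus transcripts varied widely in every group. Their part in the results was not tested beyond the values given without these arrays.

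**Figure D1:**
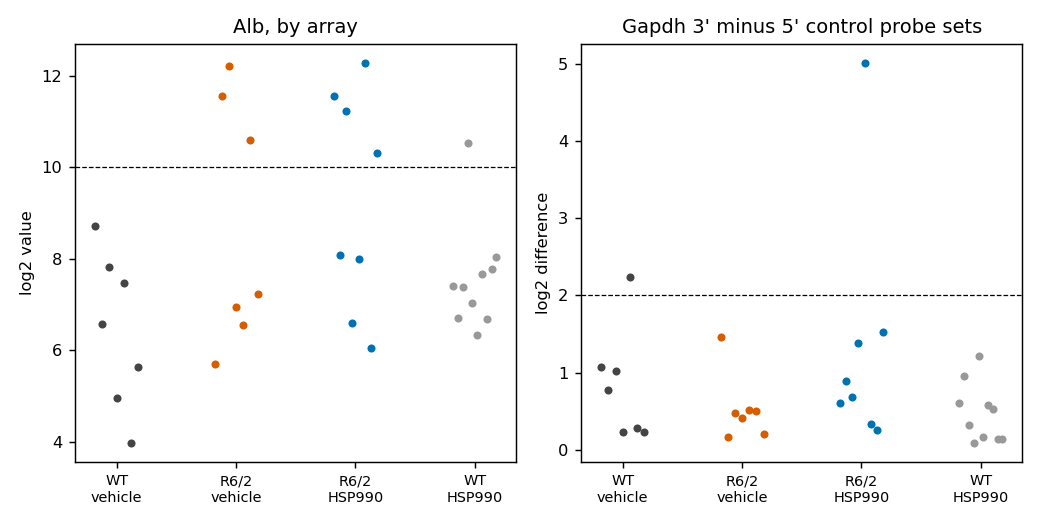
Alb (left, log2 value) and the difference between the 3′ and 5′ Gapdh control probe sets (right, log2), 1 point per array in the 4 groups; dashed lines mark 10 and 2. Alb exceeded 10 in 4 treated R6/2 arrays and in no wild-type vehicle array, and the Gapdh difference was 5.01 in 1 treated R6/2 array.

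Treated R6/2 striatum differed widely from untreated wild type. Of 18193 genes, 5240 (28.8%) were called at an adjusted p under 0.05, 3241 higher (17.8%) and 1999 lower (11%). At least 2-fold differences were fewer and mostly falls, with 86 genes higher and 214 lower. On vehicle, R6/2 differed from wild type at 3906 genes (21.5%), here termed disease-altered, with 2160 higher (11.9%) and 1746 lower (9.6%). Without the 8 arrays with Alb over 10, which leaves 4 treated R6/2 arrays, 3424 genes were called in treated R6/2.

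Of the 3906 disease-altered genes, 3047 were still called on the same side of wild type in treated R6/2, 1300 lower and 1747 higher. A further 857 were no longer called, but only 64 of these were also called for HSP990 against vehicle within R6/2. The remaining 793 had no called drug effect, so the loss of the call does not show a change. In the other direction, 2191 genes were called only after the drug, and HSP990 was called for 306 of them (235 raised, 71 lowered).

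HSP990 was called against vehicle within R6/2 for 563 genes (3.09% of all; 396 raised, 2.18%, and 167 lowered, 0.918%), and for 201 of the 3906 disease-altered genes (5.15%). It moved 79 of them toward the wild-type level (2.02% of the disease-altered genes and 0.434% of all) and 122 further away (3.12% and 0.671%). The disease difference and the drug effect share the R6/2 vehicle arrays, so error in those arrays favours opposite signs and the toward count. The count toward wild type hung on single R6/2 vehicle arrays: it was 45 without replicate 7 and 245 without replicate 1. Without replicates 3, 4 and 6 of that group it was 48, 46 and 49, and without treated replicates 1 and 3 it was 49 and 46. The count further away lay between 87 and 145 over the same 22 fits, which each left out 1 array of the R6/2 groups or of wild type on vehicle.

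Leaving out the arrays with Alb over 10 reduced both counts, to 3 toward and 21 away, with 4 arrays left in each R6/2 group. All 79 and all 122 genes kept the direction of their drug effect in the remaining arrays. The median size of the effect in log2 was 0.38 with all arrays and 0.39 without these for the genes moved toward wild type, and 0.48 and 0.53 for those moved away. The median standard error rose from 0.088 to 0.129 and from 0.100 to 0.138. Since the groups of genes were chosen on arrays that include the remaining ones, the kept direction is a description.

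**Figure D2:**
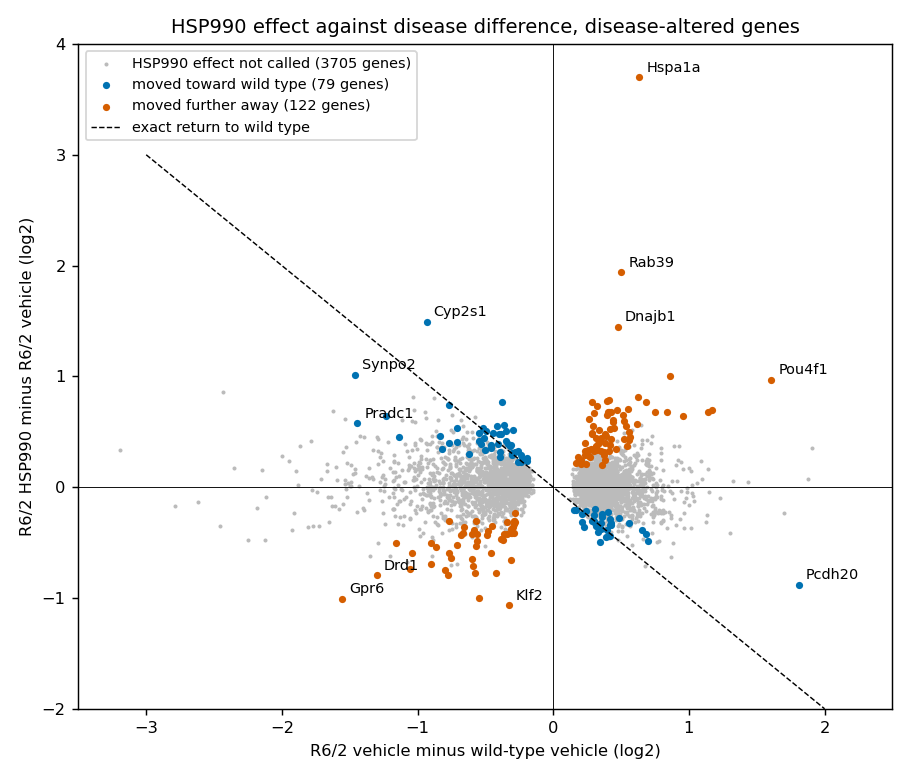
Each point is 1 of the 3906 disease-altered genes: the log2 difference of R6/2 vehicle from wild-type vehicle (horizontal) against the log2 effect of HSP990 within R6/2 (vertical). Blue points (79) moved toward wild type, orange points (122) moved further away, grey points (3705) had no called drug effect, and the dashed line marks an exact return to wild type.

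No gene with a disease difference of 1.5-fold or more was shown to be back at the wild-type level. Such genes numbered 876, and a return was called when the 90% interval of treated R6/2 minus untreated wild type lay wholly between -0.322 and 0.322 in log2. None met this, although for 700 the interval was narrow enough to fit the margin. The point estimate lay inside the margin for 45, of which 7, named after their values were seen, were called for the drug: Clptm1, Ptprn, Trpc4, Lrrc3, Tacc1, Gt(ROSA)26Sor and A930004D18Rik. The gene closest to meeting the rule was Ptprn, with an interval of -0.36 to 0.32. Over the 876 genes, the median ratio of the difference after the drug to that on vehicle was 0.962, with quartiles of 0.775 and 1.14. These genes were chosen by the size of the vehicle difference, which favours a ratio below 1 without any drug effect. With a margin of 1.5-fold, 46 genes met the rule, and how many of these were called for the drug was not counted. The interval rule was not adjusted for the number of genes. Among disease-altered genes of any size, the interval lay between -0.322 and 0.322 for 594 of 3906, against 9342 of all 18193 genes. A small disease difference can lie within that margin without a drug effect.

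The 79 genes that moved toward wild type were 46 raised from a lower level and 33 lowered from a higher one. In treated R6/2, 64 were not called against untreated wild type, 13 were still called on the disease side and 2 on the other side, Cyp2s1 and the predicted gene Gm11772. Of the 364 measured genes of the 24 lists examined, 136 were disease-altered, 2 moved toward wild type and 18 further away. Over all disease-altered genes the shares were 2.02% toward and 3.12% away, so the toward count is near the general share. The lists hold 364 of 18193 genes, so most genes of any kind lie outside them. The wild-type response to HSP990 uses none of the R6/2 arrays and was called for 5.8% of all genes, 2.24% raised and 3.57% lowered. It shares the wild-type vehicle arrays with the disease difference that chose the genes. Error in those arrays works against a response in the same direction here. The wild-type response was called in the same direction for 14 of the 79, in the opposite direction for 2 and not called for 63. When treated R6/2 was set against treated wild type, where 33.6% of all genes were called (22.6% higher, 11% lower), 34 were called on the disease side, 5 on the other side and 40 not called.

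Cyp2s1, a cytochrome P450, had the largest drug effect of these genes. Its lowest, median and highest values were 7.13, 7.33 and 8.07 in untreated wild type, 6.06, 6.68 and 6.78 in R6/2 on vehicle, and 7.38, 8.02 and 8.38 in treated R6/2. No R6/2 vehicle array reached the lowest wild-type vehicle array, and 7 of 8 treated arrays lay above the wild-type vehicle mean, with overlap between those groups. The fall in R6/2 was 1.91-fold and the rise with HSP990 2.82-fold, which left treated R6/2 1.47-fold above untreated wild type (log2 difference 0.56 ± 0.17 SE, adjusted p = 0.0097). HSP990 raised it by 1.61 ± 0.16 in wild type too, and treated R6/2 stayed below treated wild type (-1.05 ± 0.15 in log2, adjusted p = 1.6e-06). Its move was called in all 11 other settings and in all 22 fits that left out 1 array, with a drug effect of 1.67 without the arrays with Alb over 10.

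Synpo2 (synaptopodin 2, an actin-binding protein) fell by 1.46 ± 0.19 in R6/2 and rose by 1.01 ± 0.19 with the drug. It ranged from 6.54 to 7.34 (median 6.82) in untreated wild type, 4.88 to 6.34 (5.38) in R6/2 on vehicle and 5.91 to 6.98 (6.50) in treated R6/2. The treated arrays overlapped both vehicle groups, and 7 of 8 lay below the wild-type mean. The remaining difference was -0.45 ± 0.19 (adjusted p = 0.074), and it was called with the replicate block (adjusted p = 0.0070) and when only the groups compared were fitted (0.042). Of its 4 probe sets, 2 had the sign of this difference. The drug effect was 0.97 without the arrays with Alb over 10, with an adjusted p of 0.082.

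Pradc1 (a protease-associated domain protein) moved only part of the way. Its values were 8.52 to 8.93 (median 8.59) in untreated wild type, 6.91 to 7.69 (7.22) in R6/2 on vehicle and 7.64 to 7.99 (7.84) in treated R6/2. Treated R6/2 did not overlap untreated wild type and lay 1.83-fold below it (log2 difference -0.87 ± 0.09, adjusted p = 1.6e-08), against 2.72-fold on vehicle. The rise with HSP990 was 0.58 ± 0.09 in R6/2 and 0.50 ± 0.09 in wild type, so the gap between the genotypes under the drug was -1.37 ± 0.09. The drug effect in R6/2 was 0.49 without the arrays with Alb over 10 (adjusted p = 0.078).

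Srd5a3 (steroid 5-alpha-reductase 3, an enzyme of dolichol synthesis) lay at the wild-type level after treatment. It was 8.11 to 8.72 (median 8.49) in untreated wild type, 7.66 to 8.57 (7.80) in R6/2 on vehicle and 8.16 to 8.89 (8.40) in treated R6/2. The treated arrays spread around the wild-type arrays, and 1 R6/2 vehicle array, replicate 6, lay among them. It fell by 0.52 ± 0.12 in R6/2, rose by 0.53 ± 0.11 with HSP990 and was then 0.01 ± 0.11 from untreated wild type. The wild-type response was 0.01 ± 0.11, but the difference between the genotypes' responses was not called (0.52, adjusted p = 0.14). Of its 5 probe sets 4 had the sign of the remaining difference, and the drug call was lost when the probe sets were averaged. It was kept without the arrays with Alb over 10 (0.61 in log2, adjusted p = 0.019).

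Ptprn (a secretory-granule protein of the tyrosine phosphatase family) had a larger disease difference and a wider spread. Its values were 9.73 to 10.8 (median 10.5) in untreated wild type, 9.01 to 10.9 (9.63) in R6/2 on vehicle and 9.57 to 10.9 (10.5) in treated R6/2. All 3 groups overlapped, with R6/2 vehicle replicate 1 at 10.94 and the other 6 arrays of its group at 9.01 to 9.83. The drug effect was 0.74 ± 0.20 (adjusted p = 0.035) and the remaining difference -0.02 ± 0.20, with a 95% interval of -0.43 to 0.39. The move was called in 12 of 22 fits that left out 1 array. Without the arrays with Alb over 10 the drug effect was 0.54 (adjusted p = 0.39).

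The other named genes that were raised toward wild type were Mgat5b (a brain glycosyltransferase), Clptm1, Slc35c1 and Rgl1 (an exchange factor of the Ral pathway). Mgat5b rose by 0.64 ± 0.18 and stayed below wild type (-0.59 ± 0.18, adjusted p = 0.011). Drug effects of the others were 0.54 ± 0.15 (Clptm1), 0.56 ± 0.13 (Slc35c1) and 0.55 ± 0.12 (Rgl1), and none of them was called against untreated wild type. With its probe sets averaged, Clptm1 was called lower than untreated wild type (-0.61, adjusted p = 5.0e-05), and the drug call of Rgl1 was lost. For Rgl1, 1 of 2 probe sets had the sign of the remaining difference. Without the arrays with Alb over 10 the drug effects of these 4 genes were 0.50 to 0.54 with adjusted p of 0.14 to 0.39. Of 22 fits that left out 1 array, the move was called in 6 for Clptm1, 12 for Mgat5b, 13 for Slc35c1 and 22 for Rgl1.

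Among genes lowered toward wild type, Pcdh20 (a protocadherin, a cell adhesion protein) was higher by 1.81 ± 0.26 in R6/2 on vehicle, where values were 6.88 to 9.73 (median 7.70) against 5.60 to 6.39 (5.92) in wild type. Treated R6/2 lay at 6.36 to 7.27 (6.97), still higher by 0.93 ± 0.25 (adjusted p = 0.0043). The drug effect was -0.88 ± 0.25 (adjusted p = 0.044), and the move toward wild type was called in 11 of 22 fits that left out 1 array. The value of 9.73 was that of replicate 7 of the vehicle group, with the others at 6.88 to 7.85. A pair of chaperone-related genes of the endoplasmic reticulum also fell back, Manf and Hspa5 (the HSP70 of that compartment), both named here after their values were seen. Manf was 9.11 to 9.64 (median 9.27) in untreated wild type, 9.24 to 9.92 (9.72) in R6/2 on vehicle and 8.92 to 9.45 (9.29) in treated R6/2. It fell by 0.45 ± 0.09 with the drug and was then -0.06 ± 0.09 from wild type. HSP990 lowered it in wild type as well (-0.34 ± 0.09, adjusted p = 0.014).

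Hspa5 was higher by 0.42 ± 0.09 in R6/2 on vehicle, fell by 0.32 ± 0.08 with HSP990, and was 0.10 ± 0.08 above untreated wild type after it (adjusted p = 0.39). Of its 3 probe sets, 2 had the sign of that difference. No other member of the list of the integrated stress and unfolded protein response moved toward wild type. Of 20 measured, 7 were higher and 4 lower in treated R6/2, against 17.8% and 11% of all genes, with a median of 0.08. Chac1 (a glutathione-degrading enzyme induced by ATF4) was 0.98 ± 0.15 higher, and Xbp1 (a transcription factor of the unfolded protein response) and Sdf2l1 were lower (-0.41 ± 0.07 and -0.72 ± 0.12), without a called disease difference. Without the arrays with Alb over 10 the drug effects of Manf and Hspa5 were -0.47 and -0.31, with adjusted p of 0.11 and 0.31.

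**Figure D3:**
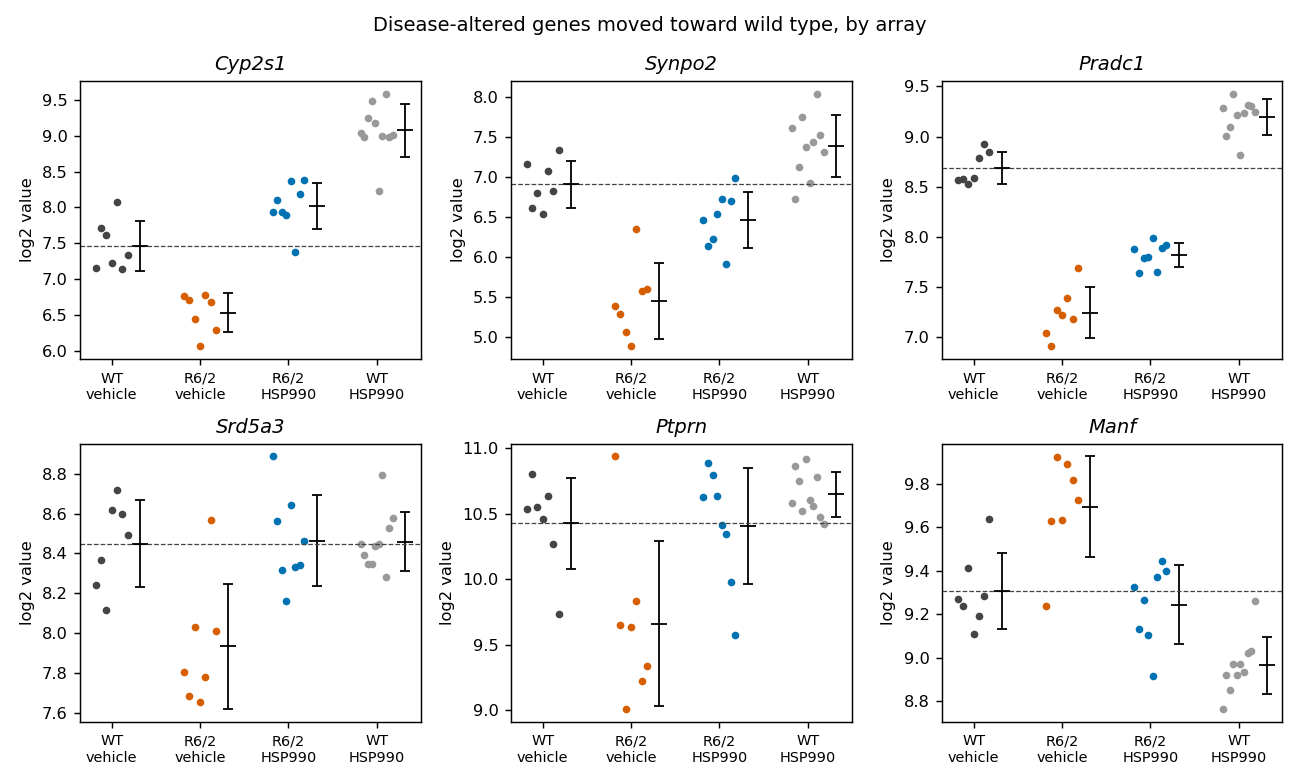
Log2 values of 6 disease-altered genes that moved toward wild type, 1 point per array in the 4 groups, with the group mean and SD in black at the right of the points; the dashed line is the wild-type vehicle mean. Treated R6/2 arrays lie above the line for Cyp2s1 in 7 of 8 cases, below it for Pradc1 in 8 of 8, and around it for Srd5a3, Ptprn and Manf.

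The 122 genes that moved further from wild type were 74 raised and 48 lowered, and all 122 were called in treated R6/2, where the difference is the sum of the disease difference and the drug effect. The wild-type response was called in the same direction for 64 of them, in the opposite direction for 2 and not called for 56. Error in the wild-type vehicle arrays, which this response shares with the disease difference, favours the same direction here. Against treated wild type, 102 were called on the disease side. That comparison uses the same treated R6/2 arrays as the drug effect that chose the genes, which favours this side.

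Heat shock chaperones made the largest rises. Of 28 measured genes of the list, 24 were higher in treated R6/2 than in untreated wild type and 1 lower. Their median log2 difference was 0.75, against 0.01 over all genes, where 17.8% were higher. On vehicle 10 list members were already higher in R6/2 and none lower, with a median of 0.15. Over all genes 11.9% were higher and 9.6% lower on vehicle. The array means of the list were 9.17 to 9.48 in untreated wild type, 9.37 to 9.57 in R6/2 on vehicle and 10.1 to 10.5 in treated R6/2. Hence 8 members moved away from the wild-type level: Hspa1a, Hspa8, Dnajb1, Dnaja1, Hspd1, Ahsa1, Fkbp4 and Cacybp. The share that moved away was 0.671% of all genes and 3.12% of the disease-altered genes. The list had 22 higher and 1 lower without the arrays with Alb over 10, but of the 8 members that moved away only Dnajb1 and Fkbp4 kept that call there. Hspa8 had it in 5 of 11 other settings, with a drug effect of 0.22 (adjusted p = 0.35) without those arrays.

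Hspa1a (inducible HSP70) was 5.27 to 6.71 (median 5.79) in untreated wild type, 6.01 to 7.82 (6.31) in R6/2 on vehicle and 9.81 to 10.6 (10.3) in treated R6/2. All treated arrays lay above all vehicle arrays of both genotypes. The difference was 20.2-fold (4.34 ± 0.20, adjusted p = 1.4e-16), of which 0.63 ± 0.21 was present on vehicle. Its move away was not called without R6/2 vehicle replicate 7 (7.82, the others 6.01 to 6.57), without wild-type vehicle replicate 1 or 6, without the arrays with Alb over 10 or with only the groups compared, although the drug effect was 3.42 without the arrays with Alb over 10 (adjusted p = 1.4e-07). The response in R6/2 was smaller than that in wild type (difference -1.61 ± 0.28 in log2, adjusted p = 0.0054), and treated R6/2 lay below treated wild type (-0.98 ± 0.19). Its near-identical copy Hspa1b was 27.7-fold higher (4.79 ± 0.30), with 12.0 to 12.8 against 5.82 to 8.90 and no called disease difference (0.07 ± 0.31). Probe sets may not separate these copies.

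Dnajb1 (an HSP40 that works with HSP70) was 9.46 to 9.94 (median 9.79) in untreated wild type, 9.92 to 10.5 (10.3) in R6/2 on vehicle and 11.5 to 11.9 (11.7) in treated R6/2. The groups were stacked in that order, with a slight overlap of the vehicle groups and the treated one clear of both. The difference was 3.80-fold (1.92 ± 0.08, adjusted p = 1.4e-17), with 0.48 ± 0.08 from vehicle and 1.45 ± 0.08 from the drug. Its move away from wild type was called in all 11 other settings tried and in all 22 fits that left out 1 array.

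HSP90 co-chaperones shared this pattern. Fkbp4 (an immunophilin) was 1.09 ± 0.09 higher in treated R6/2, Ahsa1 (an activator of HSP90's ATPase) 1.05 ± 0.10 and Cacybp 1.08 ± 0.11, with 0.40 to 0.41 of it present on vehicle. Chordc1 and Bag3 (a co-chaperone of HSP70) were 1.03 ± 0.10 and 1.10 ± 0.13 higher with no called disease difference. Hspb1 was 5.18-fold higher (2.37 ± 0.12), again without one. Hsp90aa1, the inducible HSP90 itself, was 0.55 ± 0.07 higher, and its drug effect in R6/2 of 0.24 ± 0.07 missed the threshold (adjusted p = 0.053).

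The mitochondrial chaperonins whose promoter is printed above rose less in R6/2 than in wild type. Hspe1 was 10.6 to 11.2 (median 10.7) in untreated wild type, 10.8 to 11.1 (10.8) in R6/2 on vehicle and 11.3 to 11.6 (11.5) in treated R6/2, with treated R6/2 above both vehicle groups. The rise was 0.62 ± 0.08 in R6/2 and 1.30 ± 0.08 in wild type, and the difference between responses was called (-0.68, adjusted p = 0.0029). Hspd1 rose by 0.48 ± 0.09 and 1.16 ± 0.08, with a difference of -0.67 (adjusted p = 0.0056). Dnajb5, an HSP40, was the 1 list member that was lower (-0.88 ± 0.17, adjusted p = 1.0e-04).

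Outside the chaperones, Rab39 (a small GTPase of vesicle traffic) was 5.42-fold higher in treated R6/2. It was 3.19 to 3.89 (median 3.50) in untreated wild type, 3.55 to 4.48 (3.94) in R6/2 on vehicle and 5.50 to 6.38 (5.90) in treated R6/2, so the treated group stood clear. The disease difference was 0.50 ± 0.15 and the drug effect 1.94 ± 0.15. Rab39's move away was called in 9 of 10 other settings and in 21 of 22 fits that left out 1 array. It was not called without the arrays with Alb over 10, where the disease difference was 0.35 and the drug effect 2.20. Its vehicle values lie below the median of 5.76 over all probe sets. Cys1 (cystin, a protein of the primary cilium) rose in 2 similar steps, 0.86 ± 0.12 on vehicle and 1.00 ± 0.12 with the drug, from 5.83 to 6.63 in untreated wild type to 7.77 to 8.47 in treated R6/2. Zfp52, a zinc finger gene, was 1.43 ± 0.10 higher. Cys1 and Zfp52 kept the call in all 11 other settings.

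Pou4f1, a neuronal POU transcription factor, was 3.17 to 3.95 (median 3.63) in untreated wild type, 4.12 to 7.08 (4.91) in R6/2 on vehicle and 5.29 to 6.86 (6.14) in treated R6/2. The treated arrays were all above wild type but overlapped R6/2 on vehicle. The drug effect of 0.97 ± 0.28 (adjusted p = 0.047) was 0.82 without the arrays with Alb over 10 (adjusted p = 0.43), and its move was called in 3 of 10 other settings. Sfmbt2, a Polycomb-group gene, was 4.80-fold higher, 1.90 ± 0.22 of its 2.26 ± 0.21 being present on vehicle and 0.36 ± 0.21 not called for the drug.

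Transcripts of spiny projection neurons were still low after HSP990. Of 26 measured genes of the list, 22 were lower in treated R6/2 and none higher, against 11% of all genes lower. The list median was -1.35. On vehicle 23 were lower, against 9.6% of all genes, with a list median of -1.26. The array means were 10.8 to 11.3 in untreated wild type, 9.11 to 10.5 in R6/2 on vehicle and 9.34 to 10.3 in treated R6/2, where both R6/2 groups lay below every wild-type vehicle array. HSP990 was called for 2 of the 26 within R6/2, and both moved further away. In whole striatum, fewer cells of a type and less RNA per cell cannot be told apart. The count was 20 of 26 lower without the arrays with Alb over 10.

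Drd1 was 11.4 to 12.0 (median 11.7) in untreated wild type, 9.44 to 10.9 (10.4) in R6/2 on vehicle and 8.97 to 9.99 (9.64) in treated R6/2. Treated R6/2 lay below every wild-type array and overlapped R6/2 on vehicle. It was 4.28-fold lower (-2.10 ± 0.16, adjusted p = 1.1e-11), with -1.30 ± 0.16 on vehicle and a drug effect of -0.80 ± 0.16 (adjusted p = 0.0024). In wild type the drug effect was 0.04 ± 0.15, and the difference between the responses was not called (-0.84, adjusted p = 0.084). Without the arrays with Alb over 10 the drug effect was -0.72 (adjusted p = 0.16).

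Gpr6, an orphan receptor of striatopallidal neurons, followed the same course, with 10.8 to 11.4 (median 11.3) in untreated wild type, 8.34 to 10.4 (9.86) in R6/2 on vehicle and 7.63 to 9.53 (8.71) in treated R6/2. It was 5.90-fold lower after the drug and 2.94-fold lower on vehicle. The drug effect was -1.01 ± 0.22 (adjusted p = 0.0075), and -0.60 (adjusted p = 0.41) without the arrays with Alb over 10. HSP990 was called for none of the remaining members of the list within R6/2. Scn4b (a sodium channel beta subunit) was 12.2 to 12.7 in untreated wild type and 9.0 to 10.0 in treated R6/2, 7.76-fold lower, and 6.91-fold lower on vehicle. Rasgrp2 (an exchange factor for Rap proteins) and Arpp19 lay at -2.31 ± 0.23 and -1.80 ± 0.13 in log2 from untreated wild type, against -1.93 ± 0.24 and -1.63 ± 0.14 on vehicle.

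**Figure D4:**
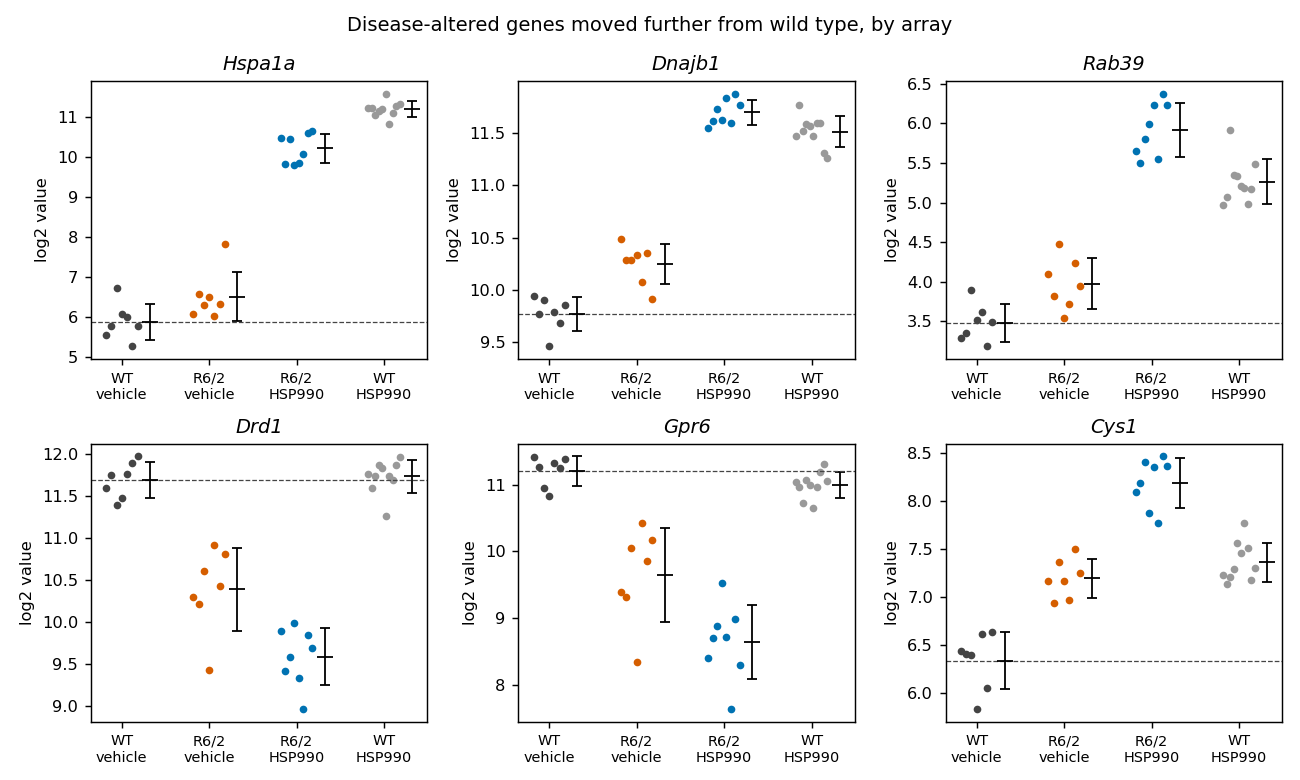
Log2 values of 6 disease-altered genes that moved further from wild type, 1 point per array in the 4 groups, with the group mean and SD in black; the dashed line is the wild-type vehicle mean. All 8 treated R6/2 arrays lie above the line for Hspa1a, Dnajb1, Rab39 and Cys1, and below it for Drd1 and Gpr6.

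Among the other striatal lists no gene moved toward wild type. Over all disease-altered genes that share was 2.02%, so a count of none in lists of this size is near the general share. Neuropeptide genes were lower at 6 of 12 in treated R6/2 and at 6 of 12 on vehicle, with medians of -0.81 and -0.64. The counts here are to be read against 11% of all genes lower and 17.8% higher in treated R6/2, and 9.6% lower on vehicle. In treated R6/2 the difference was -1.49 ± 0.16 for Penk and -1.30 ± 0.16 for Pdyn (prodynorphin), with drug effects of 0.01 ± 0.16 and 0.17 ± 0.16. For Npy (neuropeptide Y of interneurons) it was -0.68 ± 0.11. Of 13 serotonin, muscarinic, opioid and cannabinoid receptor genes, 8 were lower and 1 higher, led by Htr1b at -1.80 ± 0.21, Oprk1 at -1.18 ± 0.15 and Chrm1 at -0.95 ± 0.13. Of 13 phosphodiesterase genes 5 were lower and 1 higher, among them Pde2a at -0.77 ± 0.08.

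Ion channels of the potassium and sodium families were lower at 16 of 28 in treated R6/2, against 13 on vehicle. The shares of all genes that were lower were 11% and 9.6%. One channel gene, Kcns2 (a modulatory potassium channel subunit), moved further away. It was 8.32 to 8.68 in untreated wild type, 8.07 to 8.55 in R6/2 on vehicle and 7.62 to 7.96 in treated R6/2. HSP990 lowered it in R6/2 (-0.41 ± 0.08) and raised it in wild type (0.33 ± 0.08), and this difference was called (-0.74, adjusted p = 0.0014). Of 26 glutamate and GABA receptor genes 9 were lower in treated R6/2 and 10 on vehicle. Gabrd, the delta subunit of the GABA-A receptor, was lower (-1.53 ± 0.15) with a drug effect of 0.06 ± 0.15. Interneuron markers were lower at 6 of 9, with Nos1 at -0.67 ± 0.10.

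Among genes induced by glucocorticoids, 5 of 20 moved further from wild type, against 0.671% of all genes. HSP90 is known to hold the glucocorticoid receptor in its hormone-binding shape. Of 20 measured, 13 were lower in treated R6/2 and none higher, against 5 on vehicle, and the median went from -0.32 to -0.78. Over all genes 11% were lower in treated R6/2 and 9.6% on vehicle. The 5 that moved away were Sgk1 (a kinase), Per1 (a clock gene), Mfsd2a (a lipid transporter of the blood-brain barrier), Klf9 and Hif3a. Per1 was 8.86 to 9.90 (median 9.51) in untreated wild type, 8.41 to 9.08 (8.59) in R6/2 on vehicle and 7.80 to 8.31 (8.04) in treated R6/2, below all arrays of both. The difference was -1.36 ± 0.12, and the drug effect was -0.60 ± 0.12 in R6/2 and -0.67 ± 0.11 in wild type.

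In treated R6/2, Sgk1 (-1.55 ± 0.21) and Hif3a (-0.73 ± 0.11), both named after their values were seen, Klf9 (-0.87 ± 0.08) and Mfsd2a (-0.97 ± 0.11) were lower than in untreated wild type. Wild type responded to HSP990 in the same direction in all 5. The drug effects of Per1, Klf9, Mfsd2a, Sgk1 and Hif3a without the arrays with Alb over 10 were -0.61, -0.13, -0.35, -0.42 and -0.23, none of them called. The list as a whole then had 10 of 20 lower in treated R6/2.

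Activity-induced early genes were lower at 16 of 29 and higher at 2, against 11 lower on vehicle, with medians of -0.52 and -0.26. The shares over all genes were 11% lower and 17.8% higher, and 9.6% lower on vehicle. Klf2 (a Krüppel-like factor) was 6.07 to 6.77 (median 6.46) in untreated wild type, 5.84 to 6.55 (6.16) in R6/2 on vehicle and 4.72 to 5.59 (4.99) in treated R6/2. The vehicle groups overlapped and the treated group lay below both. Its disease difference was small (-0.33 ± 0.12, adjusted p = 0.045) and its drug effect -1.07 ± 0.12. Klf4 changed alike with the drug (-1.01 ± 0.10), without a called disease difference. Spry2 (an inhibitor of growth-factor signalling) was lower (-1.10 ± 0.11), with -0.57 ± 0.11 on vehicle and -0.53 ± 0.11 with the drug. That drug effect was not called without the arrays with Alb over 10 (-0.54, adjusted p = 0.068) or with its probe sets averaged. Klf2's move away was called in 7 of 10 other settings and 13 of 22 fits that left out 1 array. Car7, a carbonic anhydrase of neurons, was lower (-1.57 ± 0.16) in 2 like steps of -0.78 ± 0.17 and -0.79 ± 0.16.

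**Figure D5:**
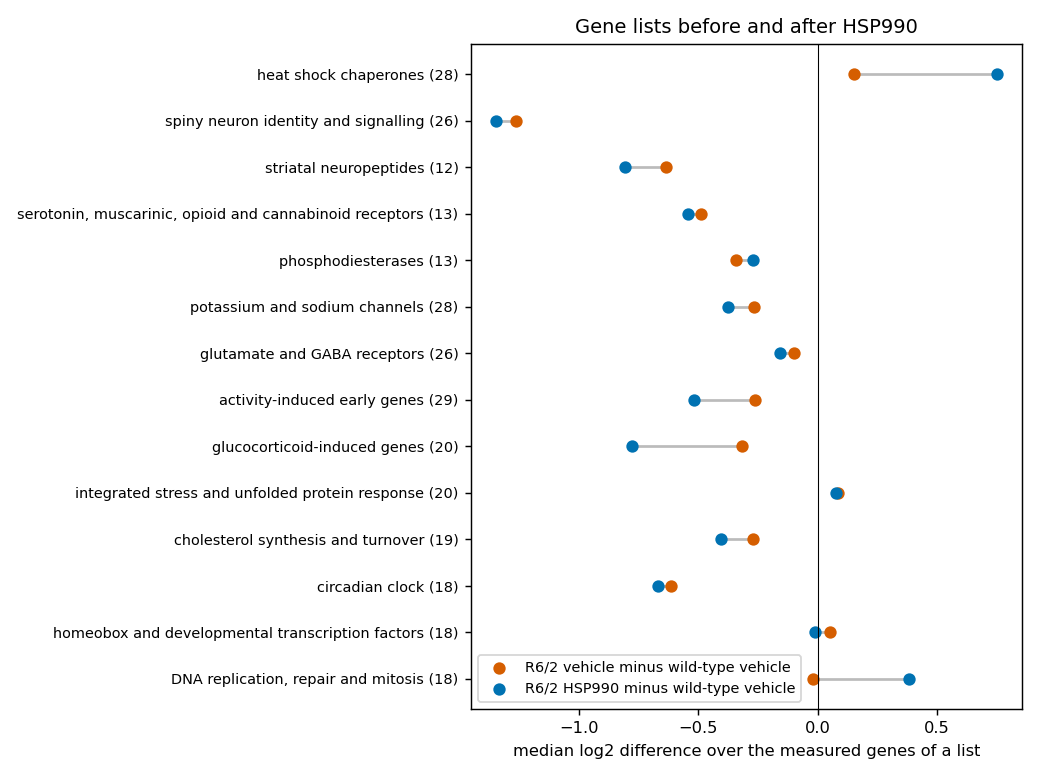
Median log2 difference from wild-type vehicle over the measured genes of 14 lists (number in brackets), for R6/2 on vehicle (orange) and treated R6/2 (blue). The chaperone median goes from 0.15 to 0.75 and the glucocorticoid median from -0.32 to -0.78, while the spiny neuron median stays near -1.3 (-1.26 and -1.35).

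Genes of DNA replication, repair and mitosis were higher at 10 of 18 in treated R6/2 and lower at none, with a median of 0.38. On vehicle 3 were higher and 1 lower, with a median of -0.02. Of all genes, 17.8% were higher in treated R6/2 and 11.9% on vehicle. Cenpe (a kinetochore motor) was 4.84 to 5.23 (median 4.92) in untreated wild type, 5.06 to 5.34 (5.16) in R6/2 on vehicle and 5.51 to 5.92 (5.78) in treated R6/2, above both. It was 0.76 ± 0.09 higher, with responses of 0.54 ± 0.09 in R6/2 and -0.34 ± 0.08 in wild type (difference 0.88, adjusted p = 3.6e-04). Brca1 was 1.09 ± 0.16 higher, with 0.58 ± 0.17 on vehicle and 3 of its 4 probe sets alike in sign. These levels are low on the array. The list had 8 of 18 higher without the arrays with Alb over 10.

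Cholesterol synthesis and turnover genes were lower at 10 of 19 and higher at none, against 7 lower on vehicle. Over all genes 11% were lower in treated R6/2 and 9.6% on vehicle. The difference was -0.88 ± 0.12 for Fdft1 (squalene synthase) and -0.59 ± 0.10 for Mvd, another enzyme of the pathway. Cyp46a1, the neuronal enzyme that hydroxylates cholesterol, stood at -1.02 ± 0.13 on vehicle and -0.64 ± 0.13 after the drug, and its drug effect of 0.38 ± 0.13 missed the threshold (adjusted p = 0.094). Clock genes were lower at 11 of 18 and higher at 3, led by Npas2 at -1.37 ± 0.10 and Ciart at -1.51 ± 0.14, much as on vehicle (10 lower, 2 higher). Of 18 homeobox and developmental transcription factors 4 were higher, a share near the 17.8% of all genes, among them Onecut1 (0.79 ± 0.11, 1 of 2 probe sets alike in sign) and Pax6 (0.66 ± 0.15, 2 of 5 alike, and 0.07 with its probe sets averaged, adjusted p = 0.49).

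The strongest falls in treated R6/2 beyond these lists were already large on vehicle. Abi3bp (an extracellular matrix protein) was 7.24-fold lower and 9.14-fold lower on vehicle. The log2 differences after the drug and on vehicle were -2.80 ± 0.22 and -2.45 ± 0.23 for Ryr1 (a calcium release channel), -2.73 ± 0.20 and -2.25 ± 0.20 for Sdr39u1, and -2.60 ± 0.22 and -2.12 ± 0.22 for Lrrc10b. They were -2.38 ± 0.24 and -2.19 ± 0.25 for Phex (a membrane endopeptidase), and -2.21 ± 0.19 and -2.12 ± 0.20 for Ddit4l (an inhibitor of mTOR signalling). HSP990 was called for none of these 6 in R6/2, which does not show that the drug left them unchanged. Crh (corticotropin-releasing hormone) was 6.75-fold lower with overlapping groups, and HSP990 lowered it in wild type (-1.92 ± 0.47, adjusted p = 0.0096).

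Of the 10 largest rises, 4 were liver transcripts, Alb, Cyp3a11, Cyp2c29 and Apoa2, with log2 differences of 2.81 ± 0.97, 2.63 ± 0.93, 2.22 ± 0.78 and 2.00 ± 0.76 and overlapping groups. Without the arrays with Alb over 10 these were 0.73, 0.47, 0.17 and 0.29, none called. In all, 5 of 15 liver transcripts were called higher in treated R6/2 and none was called on vehicle. Over all genes 17.8% were called higher in treated R6/2 and 21.5% were called on vehicle. The liver counts do not show a difference between the R6/2 groups. On vehicle the log2 differences of the 4 named transcripts were 2.23, 1.75, 1.19 and 1.36. Their drug effects within R6/2 were 0.58, 0.88, 1.03 and 0.64, none called. Among markers of glia and vessels, to be read against the 11% of all genes called lower, astrocyte markers were lower at 6 of 10, microglia markers at 3 of 10, myelin markers at 2 of 9, oligodendrocyte precursor markers at 1 of 6 and endothelial markers at 2 of 9 with 1 higher. Among the astrocyte markers, Glul (glutamine synthetase) lay at -0.31 ± 0.07 and Fgfr3 at -0.40 ± 0.09. Of neighbouring regions, read against the same 11%, cortical markers were lower at 2 of 9 and markers of thalamus, pallidum and septum at 1 of 10. Choroid plexus markers were lower at none of 7 and red blood cell markers at 1 of 3.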

How the data were processed

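RNA was labelled by an Affymetrix 3′ in vitro transcription kit, per the labels' protocols, and read on the mouse array of that maker. The range of the deposited values is that of log2 intensities. Their array medians nearly coincide, as after normalization by the authors, whose method is not stated in these sources. Of 45101 probe sets, 34945 had 1 gene symbol, 932 had several and 64 were controls. Symbols came from the platform's annotation and a mouse gene table (204 gene IDs were not in it). Each of 18193 genes was taken from its probe set with the highest mean, and 9010 had more than 1.

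Group means over all 32 arrays were fitted with limma 3.58.1 in R 4.3.3 (moderated two-sided test, Benjamini-Hochberg over all genes, called at adjusted p under 0.05; checked on simulated data). Errors are standard errors of the fit unless named SD, and rest on 1 spread per gene for all groups. A gene moved toward wild type when the disease difference and the drug effect were both called with opposite signs. Genes named were the 10 largest rises and falls, the 10 with the largest drug effect toward and away, those called on opposite sides before and after the drug, up to 3 of each list by smallest p, chaperones and Htt; clone and predicted names were passed over. The members and the 24 lists (402 entries, 370 measured) were chosen with earlier results of these data known. The liver list and leaving out arrays with Alb over 10 were chosen after seeing these values. The number of arrays limits the precision. Other settings were other normalizations, a filter on dim probe sets, averaged probe sets, other fits, RNA quality and single arrays left out. No array pair was identical. Some genes are not reported here.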

Additional observations from a re-analysis of the deposited data

Results flagged for a closer look

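Within groups of 7 or 8 arrays, 1 array was set far from the others for 27 of 249 combinations of named gene and group, where chance flags about 1 in 20. R6/2 vehicle replicate 7 was such an array for 8 genes: Hspa1b (9.52), Hspa1a (7.82), Sfmbt2 (5.50), Abi3bp (4.87), Ryr1 (7.63), Phex (5.15), Ddit4l (8.14) and Pcdh20 (9.73). R6/2 vehicle replicate 1 was one for Ptprn (10.94), Mgat5b (7.55), Zfp52 (7.01), Dnaja1 (11.05), Manf (9.24) and Htt (9.01). Both arrays enter the drug effect in R6/2, and the counts without them are given in the report. In the same group, Srd5a3 was 8.57 in replicate 6, Klf9 12.43 and Pdyn 6.4 in replicate 4, and Npy 9.43 in replicate 2.

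In wild-type vehicle, replicate 4 stood apart for Sdr39u1 (9.10), Fgfr3 (9.78) and Gabrd (9.62), replicate 7 for Arpp19 (13.02) and Hif3a (6.72), replicate 3 for Hspe1 (11.17) and Hsph1 (11.97), and replicate 6 for Npy (11.08). In treated R6/2, Sgk1 was 9.60 in replicate 4 against 8.93 to 9.20 in the others.

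The response to HSP990 differed between the genotypes, by limma's interaction term, for 5 named genes. Taken as R6/2 minus wild type, it was -1.61 for Hspa1a, -0.67 for Hspd1, -0.68 for Hspe1, -0.74 for Kcns2 and 0.88 for Cenpe on the log2 scale.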

How the results depend on the processing

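The count of genes called in treated R6/2 stayed within 1.5 times 5240 in every setting but 1: it was 3424 without the arrays with Alb over 10, and 4810 to 5456 with single arrays left out. The smaller counts moved more. Toward wild type there were 79 genes, but 28 when only the groups compared were fitted, 43 with 3′ bias as a covariate, 211 with array weights, 3 without the arrays with Alb over 10, and 45 to 245 with single arrays left out. Further away there were 122, but 64 with only the groups compared, 21 without the arrays with Alb over 10, and 87 to 145 with single arrays left out. Among genes with a disease difference of 1.5-fold or more, none was called back at the wild-type level in the main fit. There were 4 with array weights, and 1 each with the replicate block and with 3′ bias as a covariate. There was also 1 each without the arrays with a Gapdh difference over 2 and without those with Alb over 10. With single arrays left out there were 0 to 5, and with a margin of 1.5-fold 46. Fits of fewer arrays have less power; other causes were not tested. Same-numbered arrays correlated between -0.27 and 0.34. Differently numbered arrays were not set beside them, so whether the numbers pair the mice was not tested. With the replicate block there were 5008, 99 and 112 genes called, toward and away. Of 74 named genes called in treated R6/2, 67 kept the call in every setting and none reversed. Signal near background limits low genes.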
